A study of Mus musculus with 2 samples.

Results

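The 10 genes *Krt20*, *Car1*, *Car2*, *Car4*, *Slc26a3*, *Aqp8*, *Clca4a*, *Clca4b*, *Guca2a* and *Cdx2* were followed through colitis-associated colon cancers (CACs) as a group of colonocyte transport and differentiation genes. They were chosen by name and not by a measured value, but with earlier results of these data known, as were all lists used below. Counts of these genes and lists against all genes tested are thus descriptions. The genes are 10 of the 32291 of the expression table. Each was described in 11 annotated cell types of 2 libraries, and in epithelial cells also by whether *Lgr5*, a receptor that marks colonic stem cells, had a UMI or none. A UMI (unique molecular identifier) counts 1 captured mRNA molecule.

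Both libraries came from CACs of mice given 10 mg/kg azoxymethane (AOM) and 3 periods of dextran sodium sulfate (DSS) colitis, and sacrificed 110 days after the first injection. Mice were 6 to 10 weeks old at the start. The first genotype, labelled Mir34a_F/F, carries floxed *Mir34a* alleles without Cre (F/F library, 20312 cells). The second, labelled Mir34a_Mye_KO, adds *LysM-Cre*, which the study used to delete *Mir34a* in myeloid cells (ΔMye library, 18571 cells). For each genotype, 6 to 8 tumors of 3 mice were pooled into 1 library, so cells could not be traced to a mouse. F/F and ΔMye stand throughout for the libraries so labelled. The primary transcript of the targeted gene had 133 UMIs in macrophages of F/F and 462 in ΔMye, at levels of 0.0723 (0.0560 to 0.0972) and 0.111 (0.0964 to 0.130). It was thus not lower in the library labelled as the knockout. The other 3 *Mir34a* features, among them the hairpin, had no UMI in either library and check nothing, and which sequence the primary transcript's feature covers is not given in the sources used here. With 1 library per genotype there is no replicate, and no p-value was computed. All intervals are 95% intervals for counting error only.

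The libraries differed in depth, with a median of 4787 UMIs per cell in F/F and 7716 in ΔMye (147109016 and 193133086 UMIs in all). Epithelial cells numbered 11614 and 9865, with medians of 5316 and 6623 UMIs and of 11.2% and 18.3% mitochondrial UMIs. At or above 25% mitochondrial UMIs were 2328 and 3825 epithelial cells, although the study's stated filter lies there. The 11 marker lists of the cell types were each highest in their own type in both libraries (22 of 22 checks). The libraries shared 96 barcode sequences.

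Colonocytes absorb salt and water, and they mature as they move from the crypt base, where *Lgr5*-positive stem cells divide, to the surface. On this way they gain keratin 20 (*Krt20*), the carbonic anhydrases that supply protons and bicarbonate for ion exchange (*Car1* and *Car2* in the cytosol, *Car4* on the membrane), and the chloride-bicarbonate exchanger *Slc26a3*. *Aqp8* is a water channel, *Clca4a* and *Clca4b* belong to the family of calcium-activated chloride channel regulators, and *Guca2a* encodes guanylin, a peptide that acts on guanylate cyclase C to control fluid secretion. *Cdx2* is the homeobox transcription factor that sets intestinal identity.

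The genes lie on 6 chromosomes of the mouse genome (mm10/GRCm38), 4 of them on chromosome 3. *Car1* (chr3:14766216-14808368, minus strand) and *Car2* (chr3:14886273-14900770, plus strand) lie on either side of *Car3*, the 1 protein-coding gene between them. No protein-coding gene lies between *Clca4b* (chr3:144910921-144932529) and *Clca4a* (chr3:144952480-144975045), both on the minus strand. RefSeq promoter windows of GRCm38.p6, from 250 bases before to 50 after the start, were held for 7 of the 10 genes. Below are those of *Krt20* and *Clca4b*, whose UMIs were found together in the same cells, and of *Guca2a*, which did not follow them. Capitals mark TTTATG, the core letters bound by CDX proteins, searched on both strands.
Krt20, chr11:99438104-99438403, minus strand: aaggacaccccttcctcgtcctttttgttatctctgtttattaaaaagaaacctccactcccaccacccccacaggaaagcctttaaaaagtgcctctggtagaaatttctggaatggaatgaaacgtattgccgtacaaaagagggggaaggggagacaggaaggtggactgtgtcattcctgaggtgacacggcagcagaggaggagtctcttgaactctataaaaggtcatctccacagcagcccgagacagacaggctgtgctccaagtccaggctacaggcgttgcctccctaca
Clca4b, chr3:144932480-144932779, minus strand: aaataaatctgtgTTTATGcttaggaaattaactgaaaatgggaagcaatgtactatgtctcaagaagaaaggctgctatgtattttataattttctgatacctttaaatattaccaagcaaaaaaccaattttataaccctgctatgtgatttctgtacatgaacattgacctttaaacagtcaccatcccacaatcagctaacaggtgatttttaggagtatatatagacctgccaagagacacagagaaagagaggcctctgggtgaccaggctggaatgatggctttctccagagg
Guca2a, chr4:119637482-119637781, plus strand: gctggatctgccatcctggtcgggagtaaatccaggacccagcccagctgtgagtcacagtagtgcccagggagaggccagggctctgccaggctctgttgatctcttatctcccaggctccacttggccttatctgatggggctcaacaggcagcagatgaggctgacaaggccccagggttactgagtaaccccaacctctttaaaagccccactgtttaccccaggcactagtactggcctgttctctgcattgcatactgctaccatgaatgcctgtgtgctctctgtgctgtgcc
The letters TTTATG were found in 1 of the 7 windows, that of *Clca4b*, 237 bases before its start, and in 11.9% of 32851 RefSeq windows of the same length (3893). *Krt20* holds TATAAA at position -29 from its start. On either strand these letters were found in 13.6% of the 32851 windows (4473). Neither *Clca4b* nor *Guca2a* holds TATAAA on the coding strand, while *Slc26a3* does at -30 and *Car4* at 42. The window of *Clca4b* does hold TTTATA, the same letters read on the other strand. By the measure of the 13.6%, which takes either strand, it is thus a match. A match of letters is a description of the window and no sign of binding.

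In epithelial cells all 10 genes were detected, at levels that ranged from a few UMIs per 10000 down to 0.01. Levels are means over cells of UMIs per 10000. They come from counts at the 3′ end and were not divided by length, so genes are compared here with themselves across cells. *Clca4b* had by far the most UMIs of the 10, with 58497 in F/F and 77968 in ΔMye and a level of 5.90 (5.83 to 5.97) and 5.71 (5.64 to 5.77). *Krt20* stood at 1.45 (1.42 to 1.49) and 1.25 (1.22 to 1.28), and *Clca4a* at 0.655 (0.632 to 0.680) and 0.477 (0.460 to 0.497).

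Of the carbonic anhydrases, the cytosolic *Car1* had levels of 1.0 (0.975 to 1.04) and 0.808 (0.779 to 0.840), and *Car2* of 0.862 (0.834 to 0.893) and 0.908 (0.878 to 0.940). The membrane-bound *Car4* was sparse, at 0.0786 and 0.0675, from 518 and 567 UMIs. The transporters typical of surface absorption were also sparse. *Slc26a3* had 200 and 165 UMIs (0.0216 and 0.0177), and *Aqp8* had 94 and 87 (0.0108 and 0.0105). The guanylin gene *Guca2a* stood at 0.572 (0.550 to 0.597) and 0.401 (0.380 to 0.424), and *Cdx2* at 0.0548 and 0.0570.

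**Figure D1:**
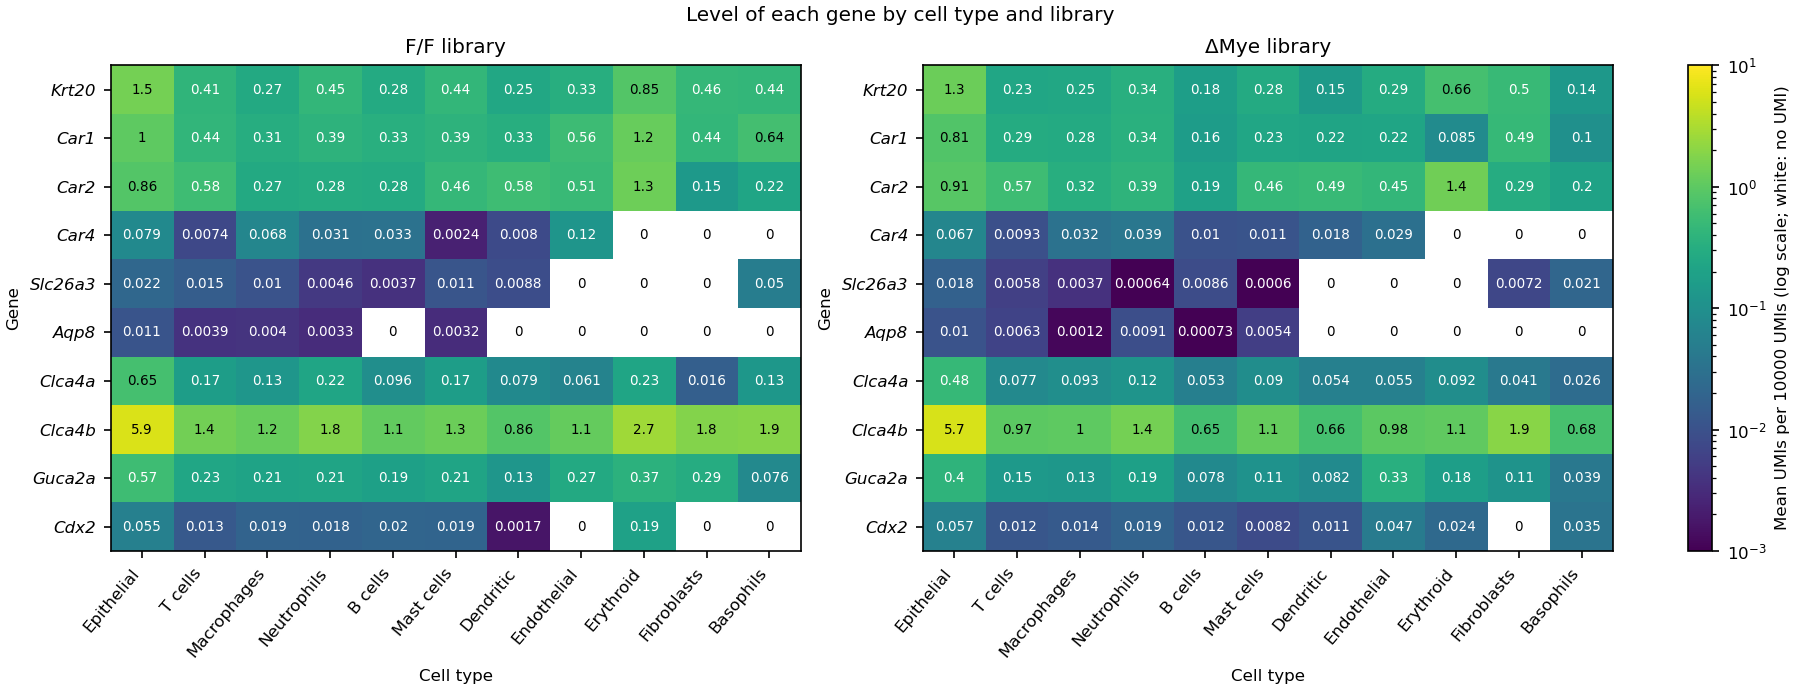
Mean level of each gene (rows, UMIs per 10000 UMIs, logarithmic colour scale) in each annotated cell type (columns) of the F/F library (left) and the ΔMye library (right). *Clca4b* is brightest in epithelial cells, at 5.90 and 5.71, and white cells hold no UMI.

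Epithelial cells had the highest level among the 11 cell types in both libraries for *Krt20*, *Aqp8*, *Clca4a*, *Clca4b* and *Guca2a*. *Aqp8* stayed below the filter, a UMI in 1% or more of epithelial cells of either library. Of the 9 genes past it, 4 did so, against 7.59% of 14503 genes tested. *Guca2a* was no longer among them with cells thinned to 1000 UMIs, nor *Aqp8* with cells of at least 500 genes and under 10% mitochondrial UMIs. The other genes were topped by small groups with few UMIs: *Car2* by erythroid cells in both libraries (106 and 30 cells, 42 and 22 UMIs), *Slc26a3* by basophils on 1 UMI each, and in F/F alone *Car4* by endothelial cells (11 UMIs) and *Car1* and *Cdx2* by erythroid cells (17 and 3 UMIs). Among the 7 cell types with at least 300 cells in each library, a limit set after the values were seen, all 10 genes were highest in epithelial cells, as were 9 of the 9 tested and 27.7% of all genes tested. The intervals of epithelial cells lay above those of the other 6 large types in both libraries for 6 genes, *Krt20*, *Car1*, *Car2*, *Clca4a*, *Clca4b* and *Guca2a*, which are 6 of the 9 tested against 9.03% of all genes tested. For the sparse *Slc26a3* and *Aqp8* they overlapped those of all 6 in both libraries. They overlapped 5 and 2 types for *Car4* (macrophages of F/F among them, at 0.0680) and 4 and 1 for *Cdx2*. *Car4* had no UMI in 106 erythroid cells of F/F, which allows a share of up to 2.83% of cells with a UMI (3 counts of 106, for counting error only).

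The genes were also read in cells that should lack them. In T cells, *Clca4b* had a UMI in 33.5% and 41.1% of cells (levels 1.42 and 0.973), against 53.7% and 58.0% of epithelial cells, at median depths of 3548 and 8043 UMIs in T cells. With cells thinned to 1000 UMIs (84 and 7 T cells and 627 and 160 epithelial cells were shallower and left out), the shares were 11.9% and 8.74% in T cells and 26.9% and 27.3% in epithelial cells. For *Krt20* the thinned shares were 3.56% and 2.16% against 11.5% and 9.56%. Epithelial cells exceeded T cells at least 1.5-fold in both libraries for 7 of the 9 genes tested, all but *Car2* and *Slc26a3*, against 28.4% of all genes tested.

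Free RNA from epithelial cells can reach every droplet, so the level of each gene outside the epithelium was set beside that of 10 broad epithelial genes, *Epcam* and *Cdh1* among them. In the other types this panel stood at 19.8% to 73.7% of its epithelial level, and in T cells at 36.6% (F/F) and 28.7% (ΔMye). *Krt20*, *Clca4a* and *Clca4b* fell short of the panel in T cells, by 0.36, 0.52 and 0.60 in F/F and 0.65, 0.82 and 0.75 in ΔMye (log2). Each thus held a smaller share of its epithelial level there than the panel of 10 genes did. The source of these UMIs was not tested. *Car1* and *Guca2a* lay near it, between 0.15 and 0.34 above.

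*Car2* stood apart from the other genes, with a larger share of its epithelial level in several blood-derived cell types than the panel had. In T cells its level was 0.576 in F/F and 0.570 in ΔMye, which is 66.8% and 62.8% of its epithelial level and exceeded the panel by 0.87 (0.73 to 1.0) and 1.13 (1.03 to 1.23) on the log2 scale. In dendritic cells its level was 0.581 and 0.491, an excess of 1.5 (1.19 to 1.81) and 1.27 (1.01 to 1.52). The excess was 0.60 and 0.98 in mast cells and 1.29 and 1.02 in erythroid cells, a lineage for which carbonic anhydrase 2 is a known component. Of 53 pairs of a gene and a cell type with at least 10 UMIs in each library, 5 exceeded the panel at least 1.5-fold in both. Over all genes tested this held for 71.6% of such pairs, so an excess sets *Car2* apart from the other genes of the list and not from genes at large. The 5 pairs are the 4 of *Car2* and that of *Car4* in macrophages. The latter had 69 and 94 UMIs, in only 32 and 28 macrophages, and an excess of 1.61 (1.19 to 2.04) and 0.65 (0.19 to 1.10).

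**Figure D2:**
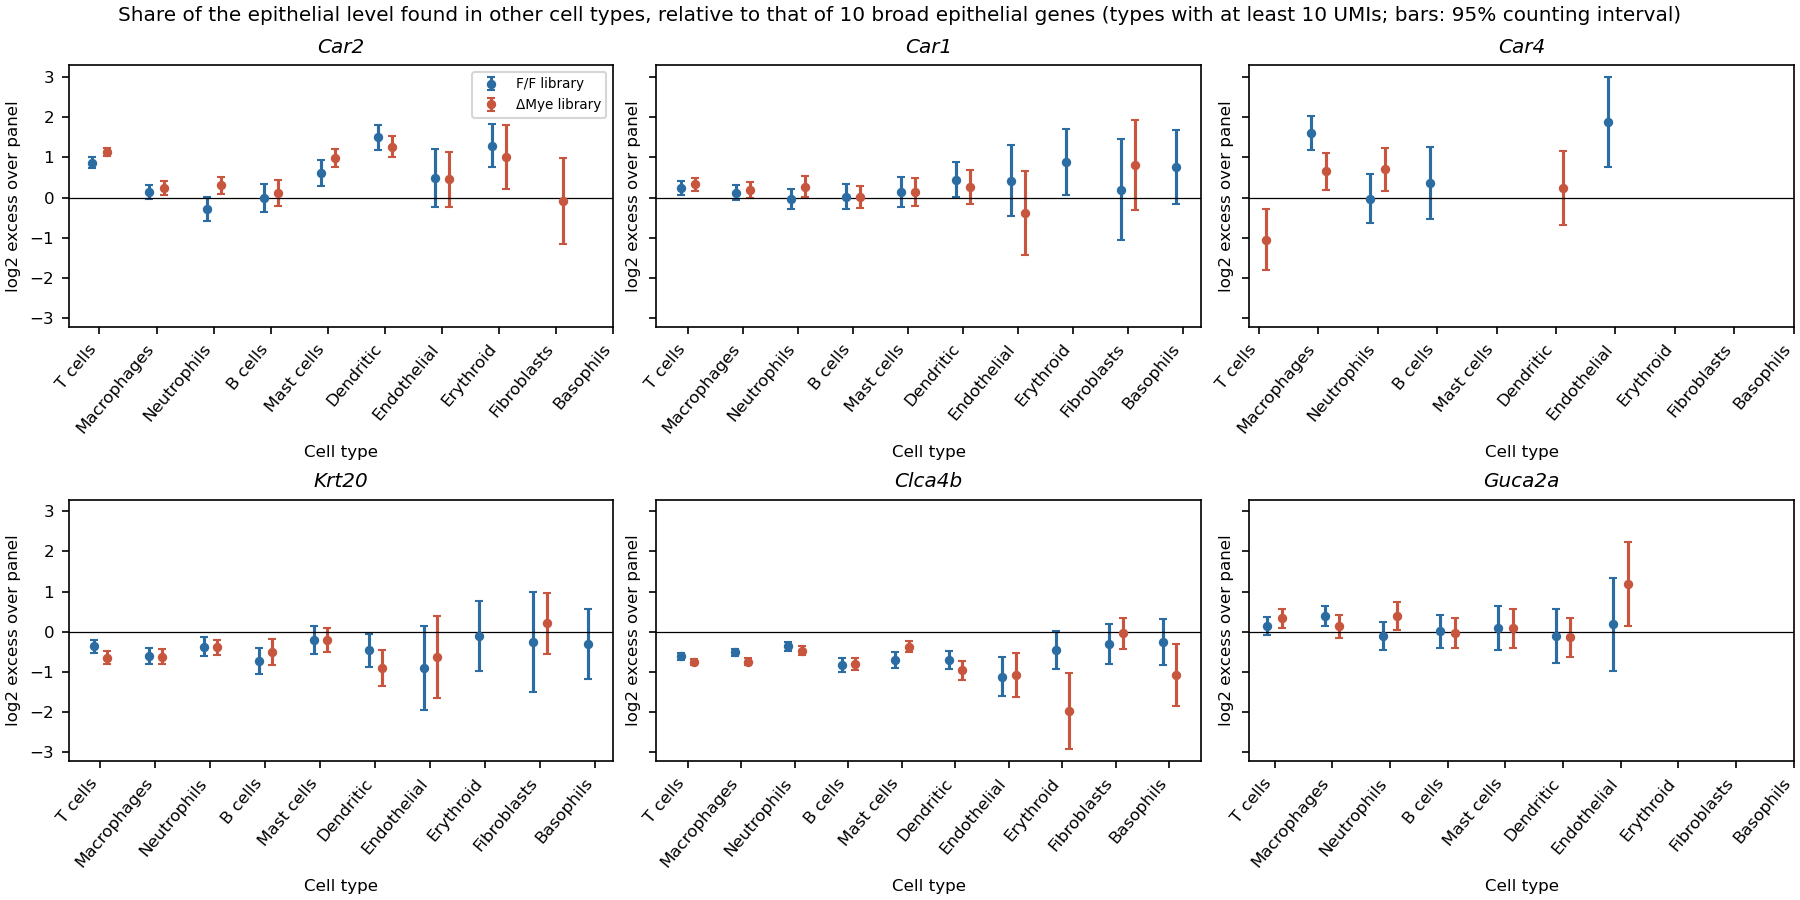
Excess of 6 genes over the epithelial panel in each non-epithelial cell type (log2 of the gene's share of its epithelial level over that of the panel; types with at least 10 UMIs; bars are 95% counting intervals). *Car2* lies above 0 in T cells (0.87 and 1.13) and dendritic cells (1.5 and 1.27), and *Clca4b* lies below 0 in T cells (-0.60 and -0.75).

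The genes most like *Car2* within T cells were looked at after its excess was seen, in cells thinned to 2000 UMIs (2521 and 2555 T cells). Of 5089 genes, the chemokine *Xcl1* was most like *Car2* (Pearson r 0.21 and 0.25 across cells), followed by *Cd7* (0.19 and 0.21), *Fcer1g* (0.18 and 0.19), *Klrd1* (0.18 and 0.22) and *Ctsw* (0.14 and 0.16). T cells with an *Xcl1* UMI had a *Car2* level of 2.23 in F/F and 2.94 in ΔMye, against 0.428 and 0.423 in those without. In the same cells *Epcam* was not higher with *Xcl1* (log2 ratio -0.43 and -0.24). In dendritic cells the most alike genes were *Fabp5* (0.24 and 0.32) and *Serpinb6b* (0.26 and 0.22), followed by *Ccr7*, *Specc1* and *Fscn1*, each under 0.2 in a library. *Ccr7* and *Fscn1* are known from migratory dendritic cells. *Car2* stood at 1.06 and 1.37 with a *Fabp5* UMI and at 0.307 and 0.174 without, from 25, 29, 13 and 11 UMIs. Since the split genes were picked for their likeness to *Car2*, these values are descriptions.

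Epithelial cells were then split by *Lgr5*. Cells with an *Lgr5* UMI numbered 2202 in F/F and 1730 in ΔMye, and 9412 and 8135 had none. *Krt20*, *Car1*, *Car4*, *Clca4a* and *Clca4b* were at least 1.5-fold higher in cells without an *Lgr5* UMI in both libraries, which are 5 of 9 genes tested against 3.23% of all genes tested. None of the 9 was higher with *Lgr5* in both libraries, against 10.7% of all genes tested. The median gene had a log2 ratio of -0.17 and -0.21.

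*Clca4b* stood at 6.63 without and 2.74 with an *Lgr5* UMI in F/F, and at 6.23 and 3.24 in ΔMye, a log2 ratio of 1.28 (1.23 to 1.32) and 0.94 (0.89 to 0.99). For its neighbour *Clca4a* the levels were 0.751 and 0.241 in F/F and 0.524 and 0.257 in ΔMye (1.64, 1.46 to 1.82, and 1.03, 0.87 to 1.19). *Krt20* was at 1.64 and 0.651 in F/F and at 1.36 and 0.738 in ΔMye (1.34, 1.24 to 1.44, and 0.88, 0.78 to 0.99). These 3 genes thus fell with *Lgr5* in both libraries, with intervals of the ratio well off 0.

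Among the carbonic anhydrases, *Car4* had the widest split in F/F, at 0.0911 without and 0.0254 with *Lgr5* (1.84, 1.30 to 2.38), and 0.0726 and 0.0432 in ΔMye (0.75, 0.32 to 1.19). *Car1* was at 1.11 and 0.573 in F/F and 0.870 and 0.517 in ΔMye (0.95 and 0.75). *Car2* lay at the threshold, at 0.923 and 0.604 (0.61) and at 0.963 and 0.646 (0.58), and passed 1.5-fold in F/F only.

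The remaining genes did not pass 1.5-fold in both libraries. For *Slc26a3* (0.20 and 1.28) and *Aqp8* (0.16 and 0.76), the interval limits ran from -0.55 to 2.18 and from -0.72 to 1.79. These ranges span both libraries, from the lowest limit to the highest, and are not intervals of 1 ratio. No split was detectable at this depth for *Aqp8* in either library. In F/F both genes turned negative with the stricter cell filter. *Cdx2* was at 0.0576 and 0.0429 in F/F (0.43, -0.07 to 0.92) and at 0.0627 and 0.0305 in ΔMye (1.04, 0.60 to 1.48). *Guca2a* was the 1 gene with opposite signs, at 0.586 without and 0.511 with *Lgr5* in F/F (0.20, 0.08 to 0.32) and 0.389 and 0.455 in ΔMye (-0.22, -0.40 to -0.05).

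**Figure D3:**
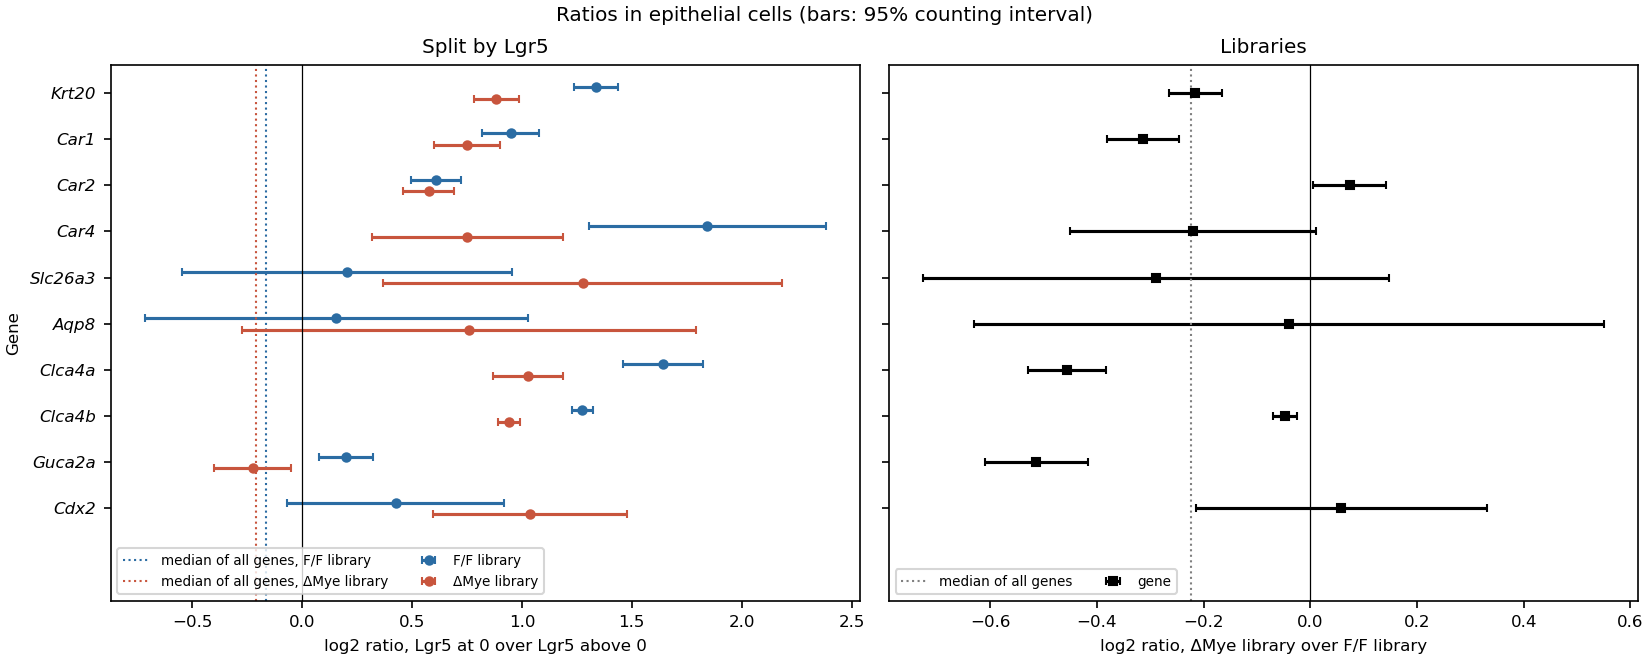
Log2 ratios of each gene in epithelial cells with 95% counting intervals: left, cells without over cells with an *Lgr5* UMI in each library; right, ΔMye library over F/F library. Dotted lines are the medians of the 14503 genes tested (-0.17 and -0.21 left, -0.22 right). *Clca4a* (1.64 and 1.03) and *Clca4b* (1.28 and 0.94) lie right of 0 in the left panel, and *Guca2a* lies on both sides of 0.

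Depth and mitochondrial content moved with this split. Cells with *Lgr5* had medians of 10859 and 9168 UMIs and of 6.00% and 14.0% mitochondrial UMIs, and cells without had 4698 and 6031 UMIs and 12.8% and 19.6%. Cells were then taken at an even depth of 3000 UMIs (8446 and 7493 cells) and split by the thinned *Lgr5* count. Here 7 of 9 genes passed, with *Car2* and *Slc26a3* added, against 5.33% of all genes tested. *Slc26a3* and *Car4* rest on few UMIs in cells with *Lgr5*. Cells with 1 *Lgr5* UMI held 4 UMIs of *Slc26a3* in F/F and 1 in ΔMye, and 1 and 1 of *Car4*. Those with 2 to 3 held 0 and 1 of *Slc26a3*, and 3 and 0 of *Car4*. Those with at least 4 held none of either. With cells under 10% mitochondrial UMIs and the same thinning (655 cells with and 3392 without *Lgr5* in F/F, 322 and 1351 in ΔMye, an alternative added after seeing the data), 6 of 9 passed, against 6.11% of all genes tested. *Car4* is among the 6, but with 3 ΔMye cells that hold it, and its ratio in F/F was 1.04. Without that filter, thinning to 3000 UMIs and the split by the thinned count left 975 and 800 cells with *Lgr5*. The ratios of the 5 genes above were then wider than before in both libraries, for *Clca4b* 1.61 and 1.87 and for *Krt20* 1.72 and 1.53. The median over the 9 genes was 0.95 and 0.88 at first and 1.28 and 1.53 here. In cells of at least 3000 UMIs, not thinned and split as at first, it was 1.23 and 0.88. The parts of even depth and of the new split were not tested.

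The decline was graded over the *Lgr5* count for *Clca4b* and *Krt20*. In thinned cells with 0, 1, 2 to 3 and at least 4 *Lgr5* UMIs, *Clca4b* stood at 7.33, 3.03, 0.942 and 0.500 in F/F and at 7.06, 2.28, 1.28 and 0.617 in ΔMye. For *Krt20* the 4 levels were 1.75, 0.636, 0.284 and 0.222 in F/F and 1.5, 0.636, 0.289 and 0.185 in ΔMye. T cells thinned the same way held *Clca4b* at 1.23 and 0.826 and *Krt20* at 0.333 and 0.203, and the intervals of *Krt20* in cells with 2 or more *Lgr5* UMIs overlapped those of T cells. For *Clca4b* the class of 2 to 3 lay above T cells in ΔMye (1.0 to 1.6 against 0.760 to 0.896), and the class of at least 4 lay below T cells in F/F (0.229 to 0.949 against 1.14 to 1.32). The highest *Lgr5* class holds 60 and 54 cells, with 9 and 10 UMIs of *Clca4b*. The means of these 2 genes were lower at each step in both libraries, but the last step of *Krt20* rests on 4 and 3 UMIs, and the intervals of the last 2 classes overlapped for both genes. The means of *Car1*, *Car2* and *Clca4a* fell up to the class of 2 to 3 and were not lower in the class of at least 4. For *Car1* they were 0.254 and then 0.389 in F/F and 0.221 and then 0.370 in ΔMye, on 7 and 6 UMIs. *Car2* went from 0.389 to 0.833 in F/F, on 15 UMIs, and from 0.357 to 0.370 in ΔMye, on 6. *Clca4a* went from 0.0747 to 0.167 in F/F, on 3, and from 0.0510 to 0.0617 in ΔMye, on 1. The intervals of these 2 classes overlapped for all 3 genes in both libraries, so no rise can be told. *Guca2a* was not graded, at 0.619, 0.366, 0.732 and 0.0556 in F/F and 0.363, 0.497, 0.238 and 0.185 in ΔMye.

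**Figure D4:**
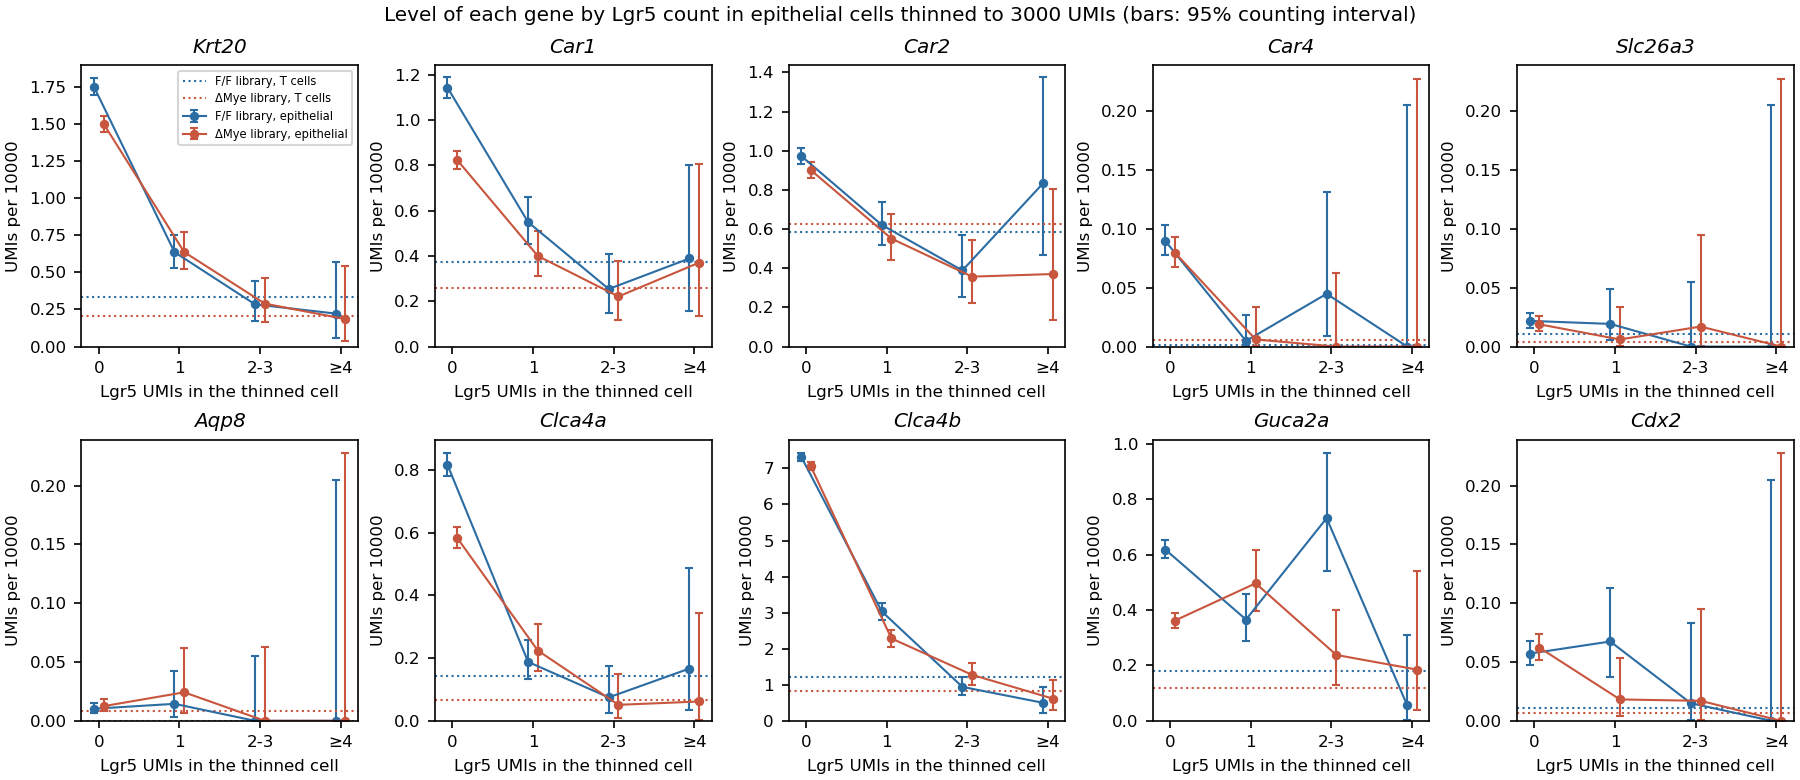
Level of each gene (UMIs per 10000) in epithelial cells thinned to 3000 UMIs, by their thinned *Lgr5* count, with 95% counting intervals; dotted lines give thinned T cells of the same library. *Clca4b* falls from 7.33 to 0.500 and from 7.06 to 0.617, and *Guca2a* shows no such order.

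Another 70 genes, in 2 lists drawn up for colonocyte transport and differentiation that hold none of the 10, were read in the same split. Not all of them are particular to that role, such as *Clca1* of goblet cells and the acute-phase gene *Saa1*. Of the 63 that passed the filter, 18 were at least 1.5-fold higher without *Lgr5* in both libraries and 4 were higher with it, against 3.23% and 10.7% of all genes tested. Of 33 transport genes, 6 were higher without and 4 with *Lgr5*, and of 30 differentiation genes 12 and 0. Ordered by the smaller of the libraries' ratios, the largest splits toward cells without *Lgr5* were those of *Clca1* (1.18 in F/F and 1.38 in ΔMye, log2), a mucus protein of goblet cells, the bile acid transporter subunit *Slc51b* (1.07 and 1.13) and the brush border protease *Mep1a* (1.07 and 1.15). *Saa1* (1.37 and 0.93), *Ly6g* (1.27 and 0.91), the brush border cadherins *Cdhr2* (1.20 and 0.90) and *Cdhr5* (1.27 and 0.89) and the proton pump *Atp12a* (1.26 and 0.84) followed. The cGMP-dependent kinase *Prkg2* (-1.30 and -1.47), the sodium-proton exchanger *Slc9a3* (-0.85 and -1.03), the bicarbonate cotransporter *Slc4a4* (-0.82 and -1.04) and the potassium channel *Kcnq1* (-0.73 and -1.0) were higher with *Lgr5*, which for these lists is a share near or below that of all genes tested.

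The stem and Wnt target list went the other way. Besides *Lgr5*, which set the split, 10 of 17 genes were higher with *Lgr5* in both libraries, against 10.7% of all genes tested, and 0 higher without. Of 12 genes of S phase and mitosis none passed in either direction, and of 8 goblet genes 3 were higher without *Lgr5*.

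The libraries were compared in epithelial cells for the question whether myeloid *Mir34a* loss goes with a change of these genes. No gene of the 9 tested passed 1.5-fold in either direction, against 8.49% of all genes tested lower and 2.39% higher in ΔMye. The median log2 ratio, ΔMye over F/F, was -0.22 over the 9 genes and -0.22 over all genes tested. Without mitochondrial, immunoglobulin and ribosomal RNA-like genes in the totals, these medians were -0.01 and 0.02. With UMIs summed over cells, which weights deep cells more, they parted, at 0.15 over the 9 genes and -0.22 over all genes tested.

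The direction of these ratios is that of the labels, and the primary transcript above was not lower in the library labelled ΔMye. *Guca2a* was at -0.51 (-0.61 to -0.42), *Clca4a* at -0.46 (-0.53 to -0.38) and *Car1* at -0.31 (-0.38 to -0.25). *Krt20* was at -0.22 (-0.27 to -0.17), *Car4* at -0.22 (-0.45 to 0.01) and *Slc26a3* at -0.29 (-0.73 to 0.15). *Clca4b*, the most counted gene, was nearly even at -0.05 (-0.07 to -0.02), as were *Aqp8* (-0.04), *Cdx2* (0.06) and *Car2* (0.07). The signs of 4 genes turned with UMIs summed over cells, for *Clca4b* to 0.51, *Car4* to 0.22, *Clca4a* to 0.18 and *Krt20* to 0.15, while *Guca2a* went to -0.82. With 1 library of pooled mice per genotype, genotype, depth and preparation cannot be told apart, and the mitochondrial share given above moved with the library. So did other genes in epithelial cells. The 10 genes of the epithelial panel were all below 0, with a median of -0.40. The summed level of the 6 epithelial markers was 83.7 in F/F and 58.3 in ΔMye, that of the 6 macrophage markers 2.08 and 3.06 and that of the 6 B and plasma cell markers 2.00 and 7.65. Their part in the ratios was not tested.

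*Clca4a* and *Clca4b* share 35.1% of the 31-base stretches of their transcripts and 3.19% in the last 500 bases, where 3′ reads fall. How reads that match both were assigned is not given in the sources used here, so the values of these 2 genes are uncertain to that extent.

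In thinned epithelial cells, UMIs of some of the 10 genes were found in the same cells and those of others were not. Of 45 pairs, 6 had a Pearson r of at least 0.1 in both libraries and 4 of at least 0.2 (medians over pairs 0.03 and 0.03). Over all pairs of genes tested these shares were 0.125% and 0.0156%, and among the 36 pairs of the 9 tested genes 5 and 3 pairs passed. With thinning to 1000 UMIs, 1 pair was at 0.2 or above, and 3 were in cells with at least 500 genes and under 10% mitochondrial UMIs. Cells of 1 library share their preparation, and sparse counts lower r. *Krt20* went with *Clca4b* (0.51 in F/F and 0.42 in ΔMye), *Clca4a* with *Clca4b* (0.35 and 0.31) and *Krt20* with *Clca4a* (0.31 and 0.28). *Car4* went with *Aqp8* (0.23 and 0.25) and *Clca4a* (0.15 and 0.13), and *Car1* with *Car2* (0.16 and 0.15). In cells with at least 500 genes and under 10% mitochondrial UMIs (4047 and 1673), *Car4* no longer went with *Aqp8* (0.05 and -0.00094) and stood at 0.12 and 0.09 with *Clca4a*.

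**Figure D5:**
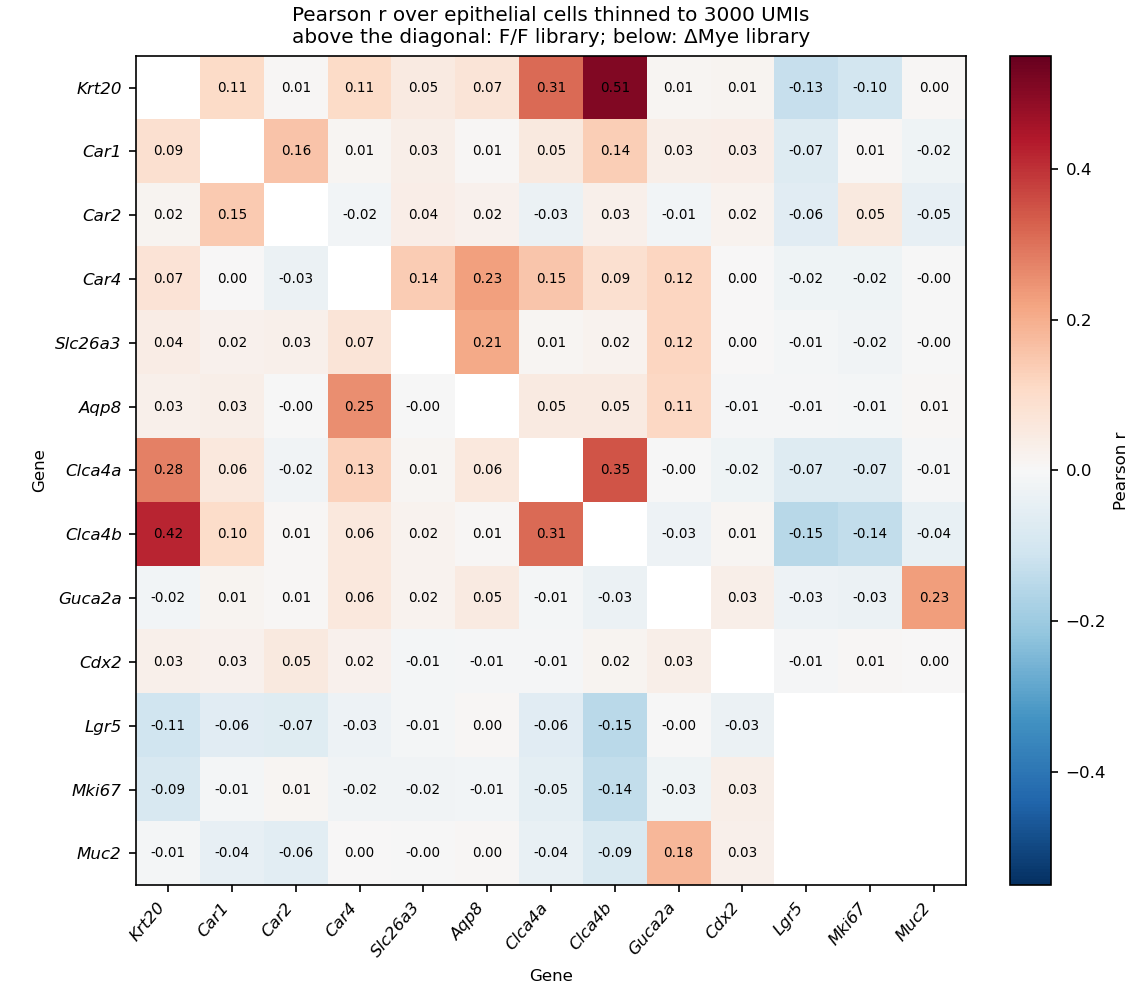
Pearson r of gene pairs over epithelial cells thinned to 3000 UMIs, above the diagonal in F/F (8446 cells) and below it in ΔMye (7493 cells), with *Lgr5*, *Mki67* and *Muc2* added. *Krt20*, *Clca4a* and *Clca4b* form a block (0.28 to 0.51), and *Guca2a* goes with *Muc2* (0.23 and 0.18).

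Likeness was computed over the 6357 genes found in 5% or more of these cells. Those most like *Clca4b* were *Saa1* (0.66 and 0.61), an acute-phase protein, *Lypd8* (0.62 and 0.58), which keeps bacteria from the colonic surface, and the mucosal defence glycoprotein *Dmbt1* (0.63 and 0.58). *Krt20* was most like *Clca4b*, *Lypd8* (0.45 and 0.38) and *Saa1* (0.44 and 0.37), and *Clca4a* most like *Ly6m* (0.37 and 0.34), *Clca4b* and *Krt20*. *Guca2a* was most like secretory genes, namely *Spink4* (0.31 and 0.24), *Reg4* (0.36 and 0.24) and *Ang4* (0.31 and 0.23), which goblet and deep crypt secretory cells are known to express. Of these 6357 genes, none reached 0.2 in both libraries for the other 6. The pair of *Car4* and *Aqp8* is not among them, since neither was found in 5% of cells.

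The 2 patterns differed when cells were divided by these genes. In cells with a *Saa1* UMI (4671 of F/F and 4118 of ΔMye), *Clca4b* stood at 11.1 and 10.6, against 1.38 and 1.56 without, and *Krt20* at 2.40 and 2.06 against 0.630 and 0.584, while *Guca2a* was at 0.558 and 0.355 against 0.645 and 0.383. In cells with a *Spink4* UMI (4605 and 3603), *Guca2a* stood at 0.790 and 0.531 against 0.365 and 0.217, and *Clca4b* at 6.32 and 5.05 against 7.28 and 7.87. Both genes were picked for their likeness to a gene of the list, and the values describe these cells.

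Cells with *Car4* were rare, 98 in F/F and 72 in ΔMye after thinning. The sparse surface transporters had higher levels in them, although most held neither. *Aqp8* had a UMI in 7.14% and 11.1% of these cells and stood at 0.374 and 0.556, against 0.00599 and 0.00764 in the other cells, from 11 and 12 UMIs. *Slc26a3* had a UMI in 7.14% and 4.17% and was at 0.340 and 0.231 against 0.0172 and 0.0157, from 10 and 5 UMIs. Without the single cell richest in it, *Slc26a3* was at 0.241 and 0.0939. *Clca4a* was at 7.52 and 3.80 against 0.661 and 0.508, and *Krt20* at 4.42 and 3.98 against 1.58 and 1.37. *Guca2a* was also higher there, at 4.59 and 2.13 against 0.550 and 0.351. Without the single cell richest in it, *Guca2a* fell to 3.71 and 0.986. *Car1*, at 4.05 in F/F, rested on 1 cell with 81 UMIs and was at 1.31 without it, against 1.03 in cells without *Car4*. *Car2* was not higher in *Car4* cells (0.714 and 0.324 against 0.931 and 0.862). Under the stricter cell filter, looked at after the values were seen, 29 and 3 cells with *Car4* were left, with 1 *Aqp8* UMI and no *Slc26a3* UMI among them. *Krt20* was then at 4.25 against 1.3 in F/F, and at 1.11 against 1.04 in ΔMye, on 1 UMI.

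The UMIs of the genes were spread unevenly over cells. The 1% of cells richest in *Clca4a* held 45.1% and 43.4% of its UMIs, and for *Guca2a* 38.1% and 41.0%, for *Car1* 29.2% and 26.3%. For *Clca4b* these were 14.0% and 14.2%, for *Krt20* 13.5% and 15.2% and for *Car2* 12.9% and 13.8%. The richest cell in *Car1*, of F/F, held 304 *Car1* UMIs among 12844 before thinning, with 93 of *Guca2a*, 2 of *Car4* and none of *Lgr5*. Of the 10 cells richest in *Car1*, 9 were of the F/F library.

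A cell rarely held many of the 10 genes at once. After thinning, 31.3% of cells in F/F and 30.8% in ΔMye had a UMI of none of them, and 4.71% and 3.55% had UMIs of 4 or more. Among cells with an *Lgr5* UMI, 50.6% and 50.1% had none and 1.13% and 0.50% had 4 or more, against 28.7% and 28.5%, and 5.18% and 3.91%, of cells without one. No cell held more than 8 of the 10.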

How the data were processed

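Single-cell libraries of the Chromium 3′ v3.1 kit were analysed. Per the labels and methods, the authors aligned reads with Cell Ranger 7.2.0 to mm10, removed doublets with Scrublet and normalized with LogNormalize of Seurat. The deposited values are natural log of 1 plus UMIs per 10000. Undoing the log gave whole UMIs (largest deviation 1.5e-10), and all 38883 cells were used with the authors' cell types. The study states a limit of 25% mitochondrial RNA, yet 2470 and 4130 cells lie at or above it.

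The level of a gene is the mean over cells of UMIs per 10000. Intervals at 95% treat UMIs as Poisson counts weighted by depth. Ratios with fewer than 10 UMIs on a side used an exact binomial interval, and shares an exact Clopper-Pearson interval. A ratio of at least 1.5-fold, in both libraries for splits, was counted as a call, over genes found in 1% or more of the epithelial cells of either library. For depth, cells were thinned to 1000, 2000 or 3000 UMIs with a fixed seed. The functions were tested on simulated data. For the intervals these were Poisson counts, so spread between cells beyond counting error was not covered. Likeness is the smaller of the libraries' Pearson r. Python 3.11.15 with numpy 2.4.6, scipy 1.17.1, pandas 2.3.3 and matplotlib 3.10.9 was used, with GENCODE vM21 positions.

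The 10 genes and all lists were chosen with earlier results of these data known. Named besides them are the 3 most alike genes per gene at r of at least 0.2 and, of the transport and differentiation lists, up to 8 per direction with the largest *Lgr5* split in the library where it is smaller. Others are said to be chosen after the values were seen. Alternatives were other averaging, cell filters, totals, thinning, *Lgr5* thresholds, T-cell subtraction and gene filters.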

Additional observations from a re-analysis of the deposited data

Results flagged for a closer look

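*Guca2a* was flagged for the sign of its *Lgr5* ratio in the libraries. The log2 ratio of epithelial cells without over cells with an *Lgr5* UMI was 0.20 (0.08 to 0.32) in the F/F library and -0.22 (-0.40 to -0.05) in the ΔMye library, so the signs were opposite. With 1 library each, the difference was not tested. Under 9 alternatives the value in F/F ranged from 0.03 to 0.77 and that in ΔMye from -0.59 to -0.04, without a change of sign in either. The depth and mitochondrial values of both groups of cells are given with the split.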

How the results depend on the processing

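The number of genes highest in epithelial cells was 5 and became 10 among the 7 large cell types (added after seeing the data). It was 5 or 6 otherwise, with *Car1* in place of *Guca2a* when cells were thinned to 1000 UMIs and of *Aqp8* under the stricter cell filter. The number split by *Lgr5* was 5 and became 8 with UMIs summed over cells and 8 with at least 2 *Lgr5* UMIs against none. With the other alternatives it lay between 4 and 7. No gene passed between the libraries in the reported comparison. The number was 1 with UMIs summed over cells (*Guca2a*, -0.82), 1 with at least 500 genes and under 10% mitochondrial UMIs (*Clca4a*, -0.69), 1 with at least 3000 UMIs (*Guca2a*, -0.72), 1 after subtraction of the T-cell level (*Slc26a3*, 0.91), and 2 without the 1% of cells richest in each gene, which was added after seeing the data (*Car4*, -0.98, and *Slc26a3*, -0.99). That last setting left 78 of 195 and 48 of 147 cells with a *Car4* UMI, and 4 and 2 with one of *Slc26a3*. The value of *Slc26a3* is thus set by how many cells are left out and says nothing of the libraries. That of *Car4* also depends on the cut, which took out most cells that hold it. The cause of the other shifts was not tested. The *Lgr5* split of *Aqp8* in the ΔMye library changed sign to -0.42 when cells were thinned to 3000 UMIs. That value rests on 4 *Aqp8* UMIs in cells with 1 *Lgr5* UMI and none in those with more. In F/F, where its split was 0.16, it went to -1.0 with at least 500 genes and under 10% mitochondrial UMIs and to -1.15 with thinning added. There *Slc26a3* went from 0.20 to -0.12 and -0.47. Before that filter, thinned F/F cells with 1 *Lgr5* UMI held 3 UMIs of *Aqp8* and 4 of *Slc26a3*, and those with more held none. The split of *Cdx2* in F/F went from 0.43 to -0.62 with thinning to 1000 UMIs. Pairs of genes at r of at least 0.1 in both libraries numbered 6 and fell to 4 with thinning to 1000 UMIs and to 4 under the stricter cell filter, where both pairs of *Car4* were lost. Those at 0.2 numbered 4 and fell to 1 and 3. Among values of single genes under an alternative, 117 moved by less than their counting interval and 139 by more. No paired analysis was possible because each genotype has 1 library. Depth limits *Slc26a3*, *Aqp8*, *Car4* and *Cdx2*, with at most 567 UMIs in epithelial cells of a library.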
